A study of Homo sapiens with 16 samples.

Results

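The 4 arrays that received only the carrier DMSO give the baseline of U-87MG, a human glioblastoma cell line, in carrier alone. They are 4 of the 16 arrays of the series. They were chosen by their treatment label, and each of 14040 genes with a row of its own was placed by its level, its rank and its spread over these 4 arrays, with no treatment compared. The cells came from ATCC, were grown in complete DMEM and received DMSO at 0.1%. The other 12 arrays, 4 for each treatment, carried 25 µM of the indole keto acid I3P, 1 µM of SR1, or both agents. SR1 blocks the aryl hydrocarbon receptor. These 12 arrays appear below only beside the spread, correlations, replicate differences and series differences of the DMSO arrays, and in the choice of rows. All groups share the same cell line, and 100 ng of total RNA was labelled for each array. The labels call the 4 arrays biological replicates, and nothing names separate thaws or cultures, so the spread given here is the spread between these arrays, which may be technical. U-87MG is a single line with a long history in culture, and it stands for its own passage and medium rather than for a tumour with its vessels, microglia and matrix.

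Glioblastoma is a malignant glioma of the adult brain. Tumours and lines are often described along an axis from a proneural state, with genes of neural progenitors and oligodendrocyte precursors such as PDGFRA and OLIG1, to a mesenchymal state, with genes of matrix, adhesion and wound response such as FN1, CD44 and CHI3L1. Receptor tyrosine kinases at the cell surface bind growth factor ligands, and tumour cells can make ligands for their own receptors. The aryl hydrocarbon receptor (AHR), the subject of the series, is a transcription factor that waits in the cytosol in a chaperone complex, binds indoles and planar aromatic compounds, and then pairs with ARNT to act on genes such as CYP1A1 and CYP1B1.

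Values are log2 expression values after robust multi-array averaging, a scale on which a step of 1 is a doubling. In DMSO they ran from 2.13 to 13.70. The median gene mean was 8.35, the lowest 10% of gene means ended at 7.19 and the highest 10% began at 10.34. The percentile of a gene is the percent of genes at or below its level. Probes differ in how well they bind, so a percentile places a probe set signal and is no order of transcript abundance between genes. No detection calls were at hand, and a gene near the floor is described by where it lies, not as absent. In bulk RNA, fewer cells of a type and less RNA per cell cannot be told apart.

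DMSO replicate 4 stood apart from the other DMSO arrays. Its correlations over genes with replicates 1, 2 and 3 were 0.935, 0.928 and 0.945, against 0.966 to 0.975 among those 3 arrays. Its root mean square distance from the gene means was 0.312, against 0.203 to 0.218 for the others. It correlated at 0.963 to 0.968 with the replicate 4 arrays of the other groups. DMSO replicates 1, 2 and 3 correlated at 0.901 to 0.974, 0.972 to 0.979 and 0.968 to 0.977 with the arrays of their own replicate number. DMSO replicate 4 thus lay closer to its own replicate number than to the other DMSO arrays, but less close than replicates 2 and 3 did. Replicate 4 shares the title series SMI with replicate 3, while replicates 1 and 2 carry SLI, names that the labels do not explain. Levels are given as mean ± SD (n = 4) and, for some genes where replicate 4 lay far from the others, also without it.

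Of the 14040 genes, 1120 (7.98%) lay in the highest 10% on all 4 arrays and 354 (2.52%) in the lowest 10% on all 4. Genes near the floor kept their place less firmly, and without replicate 4 the lowest set held 626 genes. As a guide to the floor, genes restricted to other tissues were listed, and 20 of the 43 had a row of a single symbol. These 20 had a median percentile of 21.8, and 18 of the 20 lay below percentile 50. Genes without such a row have no place on the scale, so every percentile ranks a gene among the measured genes only. FGB, the liver gene of fibrinogen, was at 6.58 ± 0.56 (percentile 1.03), and the pancreatic enzyme gene CPA1 was at 7.05 ± 0.43 (percentile 6.33). The exceptions were ALB, the serum albumin gene, at 10.40 ± 0.24 (percentile 90.6), and UMOD, the kidney gene of uromodulin, at 10.73 ± 0.42 (percentile 93.6). Signals in the highest 10% thus also occurred for genes known from other organs, and groups of related genes are described beside single ones for that reason.

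The highest levels belonged to genes of mitochondrial respiration, translation, glycolysis, the cytoskeleton and the matrix. The 20 highest gene means, after 4 small RNA genes, pseudogenes or uncharacterised loci were passed over, ran from 13.68 ± 0.03 for COX1 down to 12.83 ± 0.21 for PKM. COX1, ND2 and CYTB are encoded by the mitochondrial genome and make subunits of the respiratory chain. MT2A, a metallothionein that binds zinc and copper, read 13.62, 13.67, 13.55 and 13.46 on replicates 1 to 4, a tight set near the top of the array. RPS7 and RPL26 (ribosomal proteins) and EEF2 (the elongation factor that moves the ribosome) stood for translation. ENO1, GAPDH and PKM stood for glycolysis, and TUBB, TUBB4B, ACTG1 and VIM for the cytoskeleton. FTL makes the ferritin light chain that stores iron, YWHAZ a 14-3-3 adaptor, HIST2H2AC a histone H2A and PLP2 a membrane proteolipid. FN1, fibronectin, read 13.14, 13.07, 13.22 and 13.10, and TFPI2, a secreted inhibitor of serine proteases, read 13.23, 13.12, 12.96 and 13.11. Neither gene varied by more than 0.3 between any 2 of the arrays.

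At the other end lay genes of germ cells, epithelia, muscle and immune cells. The 20 lowest gene means were taken after 5 genes of the kinds named above were passed over. They ran from 4.79 ± 0.47 for SYCP1, a protein of meiotic chromosomes, up to 5.99 ± 1.04 for CFLAR-AS1, an antisense RNA. SYCP1 read 4.43, 4.46, 5.43 and 4.84 and GRIK2, a kainate receptor subunit, read 5.64, 5.96, 6.23 and 5.43. CD3G, a chain of the T cell receptor complex, read 6.37, 5.98, 5.62 and 5.88, and TRIM29, a basal epithelial protein, read 6.25, 5.98, 5.02 and 5.53. ANKRD1, a muscle ankyrin repeat protein and target of YAP in many cells, read 5.42, 4.77, 5.20 and 6.93, and PIK3CG, the leukocyte PI3 kinase catalytic chain, read 5.21, 5.26, 5.41 and 7.56. For the latter pair replicate 4 lay above the other 3 arrays by more than 1. SLC17A3, a kidney urate carrier, MGAM, an intestinal maltase, and CLDN1, a tight junction protein, were also low by mean and highest on replicate 4, at 8.12, 8.36 and 8.13 against means of 5.02, 5.53 and 5.70 on the other 3.

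**Figure D1:**
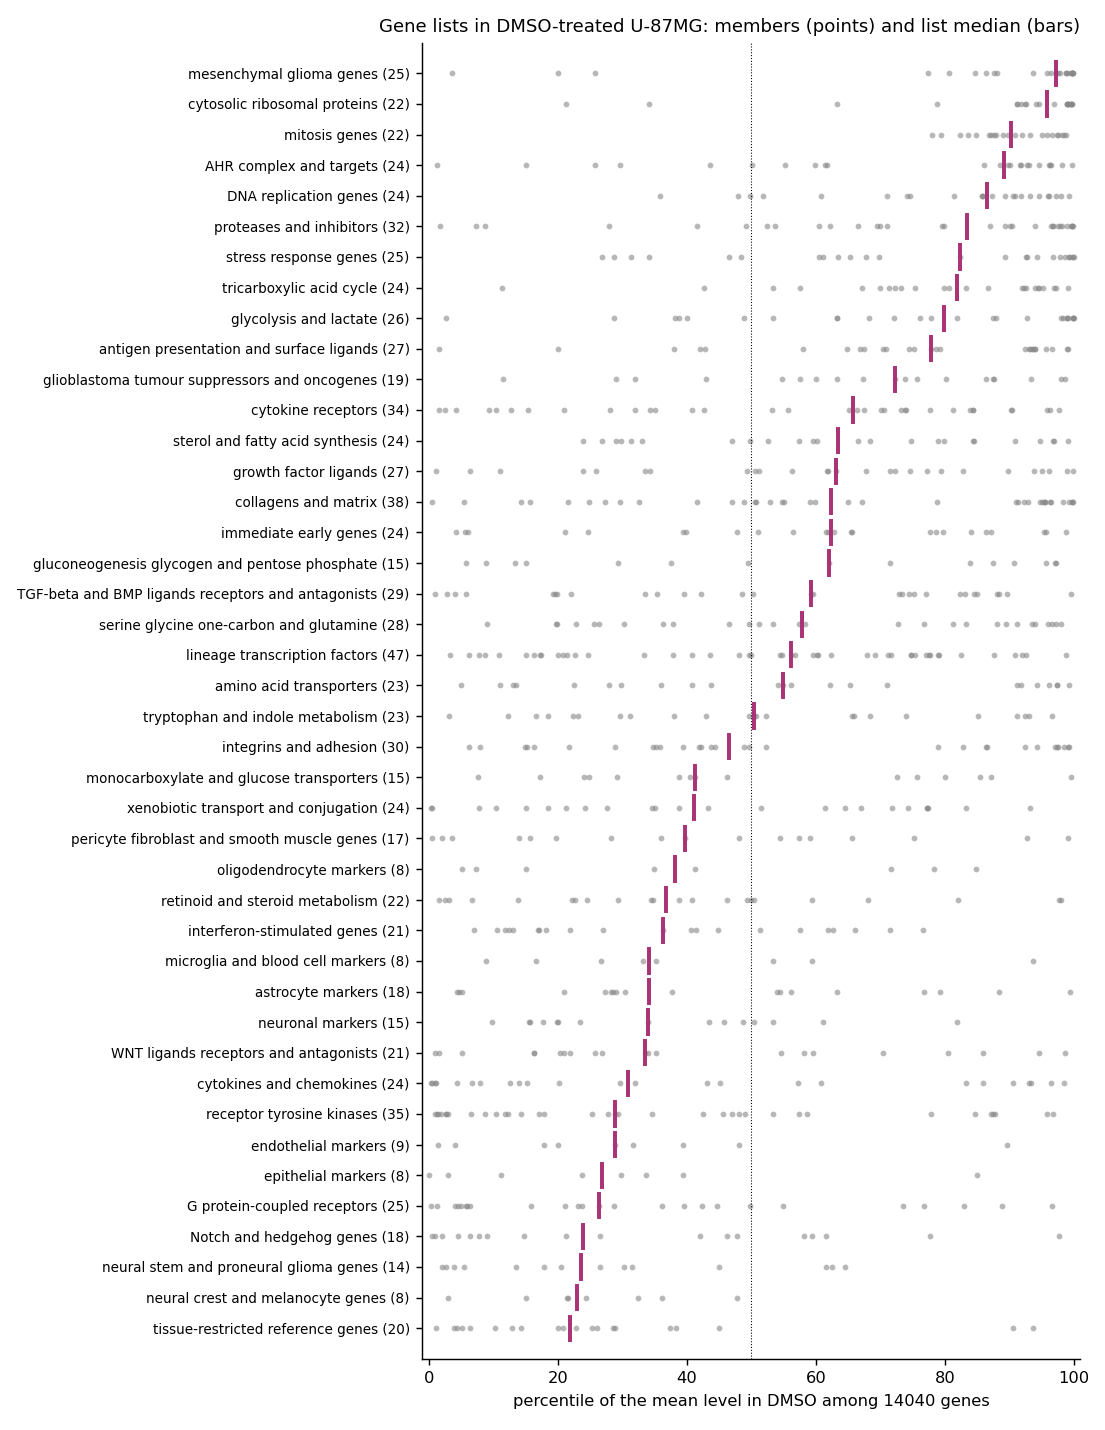
Each point is a gene of a list and each bar the list median, placed by percentile of the mean level of the 4 DMSO arrays (x axis), with the number of measured members after each list name. Mesenchymal glioma genes lead with a median percentile of 97.3, and tissue-restricted reference genes come last at 21.8.

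Promoter sequences from RefSeq (GRCh38.p14) were matched to 7873 of the 14040 genes, those with a single promoter entry under their current symbol, each spanning 250 bases before the start to 50 after. The ratio of observed to expected CpG went up with level. Its median was 0.668 in the lowest 10% of these genes and 0.887 in the highest, and the share of promoters under 0.5 went from 40.5% to 5.46%, against 16.8% of all. The core box TATAAA, searched on the strand of the gene with all its bases 45 to 10 bases before the start, was in 2.72% of all promoters. It was in 6.35% of the lowest 10%, 1.52% to 1.90% of bins 4 to 9 of 10 equal bins and 3.68% of the highest 10%. On both strands and anywhere in the window, the letters were in 6.22% of promoters. Among the cytokines and chemokines the median CpG ratio was 0.388 over 14 members with a promoter, against 0.949 over 15 ribosomal protein genes and 0.223 over 12 tissue-restricted genes. These are descriptions of sequence beside level and say nothing of which factor is bound.

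**Figure D2:**
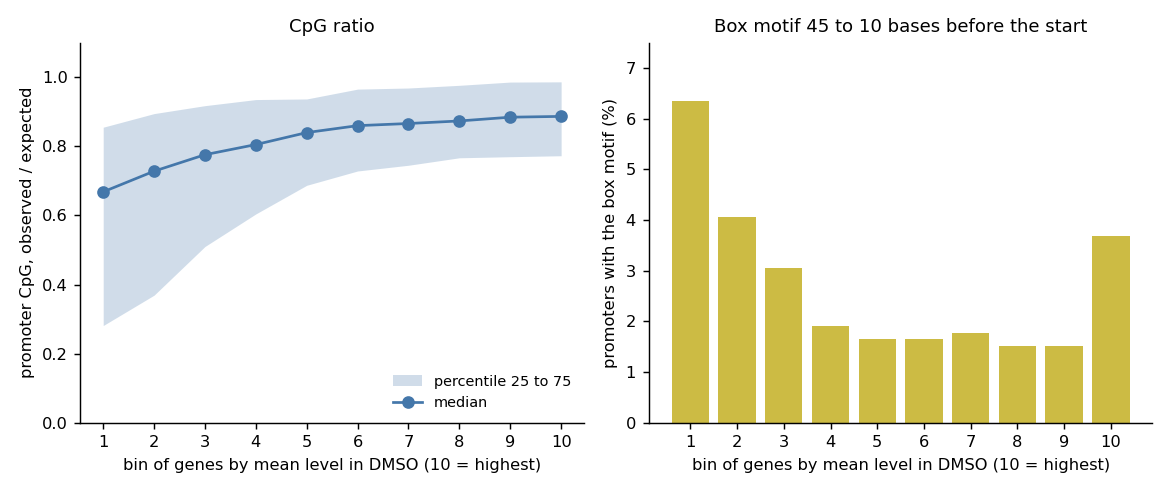
Left, the median (points) and the range from percentile 25 to 75 (band) of the CpG ratio in promoters, for the 7873 matched genes in 10 bins by mean DMSO level (x axis). Right, the percent of promoters with the core box, which is 6.35% in the lowest 10%, 1.52% in bins 8 and 9 and 3.68% in the highest.

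Both ends of the level scale held promoters with the core box, and 12 are shown, all of genes whose levels are described in this report. Each line gives the 60 bases before the start, 5′ to 3′ on the strand of the gene in GRCh38.p14, with the box in capitals. The first 8 genes lay above percentile 90 in DMSO and the last 4 below percentile 6.
MT2A (chr16:56608524-56608583, plus strand): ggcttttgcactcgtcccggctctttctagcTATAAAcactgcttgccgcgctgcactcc
EEF2 (chr19:3985464-3985523, minus strand): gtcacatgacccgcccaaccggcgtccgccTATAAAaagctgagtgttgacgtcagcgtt
CALR (chr19:12938549-12938608, plus strand): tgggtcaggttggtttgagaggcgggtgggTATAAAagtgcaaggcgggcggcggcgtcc
ANXA1 (chr9:73151805-73151864, plus strand): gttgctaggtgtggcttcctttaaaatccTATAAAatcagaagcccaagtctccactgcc
EREG (chr4:74365085-74365144, plus strand): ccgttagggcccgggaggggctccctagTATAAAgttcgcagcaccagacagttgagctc
SERPINB2 (chr18:63887645-63887704, plus strand): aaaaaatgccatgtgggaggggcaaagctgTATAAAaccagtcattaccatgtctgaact
CHI3L1 (chr1:203186705-203186764, minus strand): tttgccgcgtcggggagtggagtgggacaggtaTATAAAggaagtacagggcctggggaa
IL8 (chr4:73740509-73740568, plus strand): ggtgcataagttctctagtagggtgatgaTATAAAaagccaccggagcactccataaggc
FOS (chr14:75278768-75278827, plus strand): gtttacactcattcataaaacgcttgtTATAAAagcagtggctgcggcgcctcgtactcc
S100A4 (chr1:153545807-153545866, minus strand): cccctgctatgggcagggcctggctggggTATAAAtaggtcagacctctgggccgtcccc
CYP1A1 (chr15:74725529-74725588, minus strand): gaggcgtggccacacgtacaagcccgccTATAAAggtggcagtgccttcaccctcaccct
POSTN (chr13:37598769-37598828, minus strand): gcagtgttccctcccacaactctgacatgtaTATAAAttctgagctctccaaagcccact
The box began 27 to 33 bases before the start in all 12. The CpG ratio over the whole window differed widely among them, from 0 in ANXA1 and 0.0880 in SERPINB2 to 0.957 in FOS and 1.36 in EEF2. The same letters thus stood before genes near the top of the array and before genes near its floor.

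Mesenchymal glioma genes had the highest median level percentile of the 43 lists. Of 25 mesenchymal glioma genes measured, 16 (64%) lay in the highest 10% on all 4 arrays, against 7.98% of all genes, and the list median was percentile 97.3. By that share the cytosolic ribosomal protein genes came first, with 15 of 22 (68.2%). TNC, the matrix protein tenascin-C, read 12.61, 12.49, 12.64 and 12.97. TGFBI, a matrix protein induced by TGF-beta, read 12.46, 12.59, 12.67 and 12.57, and ANXA1, a membrane-binding annexin whose promoter is printed above, read 12.55, 12.50, 12.68 and 12.49. All 4 arrays read above 12 for these 3 genes. CHI3L1, the secreted glycoprotein also called YKL-40 and a common mark of the mesenchymal class, read 11.10, 10.79, 11.41 and 11.36. CD44, the receptor for hyaluronan, was at 10.07 ± 0.27 (percentile 86.4), and STAT3, a transcription factor of the mesenchymal programme, at 10.18 ± 0.20 (percentile 88.1). The low members were RELB, an NF-kappaB subunit, at percentile 25.8, TRADD, a tumour necrosis factor receptor adaptor, at 20.036, and TAGLN, the actin-binding transgelin of smooth muscle, at 3.63.

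Neural stem and proneural genes lay low. The 14 measured members had a median percentile of 23.5, and 11 of the 14 lay below percentile 50. In the highest 10% on all arrays lay 0 of 14, against 7.98% of all genes, a difference too small to read at this list size. PDGFRA, the receptor that marks oligodendrocyte precursors, read 6.18, 6.41, 6.97 and 7.74, with the highest value on replicate 4. OLIG1, a transcription factor of that lineage, read 7.06, 7.202, 6.98 and 6.44. DLL3, a Notch ligand of the proneural class, was at 6.75 ± 0.34 (percentile 2.01), and NCAN, the brain proteoglycan neurocan, at 7.01 ± 0.12 (percentile 5.40). NES, the intermediate filament nestin, read 7.35, 7.57, 7.81 and 7.80, also in the lower part of the scale. POU3F2, a neural progenitor transcription factor, was highest of the list, at 8.90 ± 0.20 (percentile 64.5). PROM1, which encodes the stem cell antigen CD133, read 7.80, 8.09, 8.39 and 11.03, so replicate 4 read above 10 and the other 3 arrays below 9. SOX2 and OLIG2 had no row of a single symbol and were not analysed here.

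Astrocyte markers divided. CLU, the secreted chaperone clusterin, was at 12.29 ± 0.07 (percentile 99.5), and GJA1, the gap junction protein connexin 43, read 10.19, 10.44, 10.55 and 9.66. NFIB, a transcription factor of glial differentiation, was at percentile 79.3 and GLUL, glutamine synthetase, at 76.8. By contrast GFAP, the defining intermediate filament of astrocytes, read 7.55, 7.75, 7.53 and 7.91, at percentile 28.5. AQP4, the astrocyte water channel, was at percentile 37.7, ALDH1L1, a folate enzyme used as a pan-astrocyte marker, at 29.0, and NDRG2 and ATP1B2, genes of mature astrocytes, at 4.43 and 4.64. The median over 18 members was percentile 34.1. The glial marker that defines the cell type was thus not high on any DMSO array.

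Markers of other cell types lay mostly below the median gene. Of 15 neuronal genes, 11 lay below percentile 50, with a median of 34.0. In the highest 10% on all arrays lay 0 of 15, against 7.98% of all genes, too few genes to read a difference from. ENO2, neuronal enolase, was highest at percentile 81.9, and GRIN1, an NMDA receptor subunit, lowest at 9.81. Among oligodendrocyte genes UGT8, a galactolipid enzyme, was at percentile 84.8 and SOX10, the lineage factor shared with neural crest, at 15.0. Endothelial genes had a median percentile of 28.9. ENG, the TGF-beta co-receptor endoglin, was the high member at 10.31 ± 0.25 (percentile 89.6), while TEK, the angiopoietin receptor, was at 1.33 and ROBO4 at 3.99. Of the microglia and blood cell genes, PTPRC, the pan-leukocyte antigen CD45, was at percentile 8.88, AIF1, a microglial actin-binding protein, at 33.2, and only HLA-DRA exceeded percentile 60. Epithelial genes ran from KRT5, a basal keratin, at 9.98 ± 0.23 (percentile 84.9), to ESRP1, an epithelial splicing factor, at 5.73 ± 1.34 (percentile 0.0783), which read 4.93, 4.61, 5.79 and 7.61.

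Genes of pericytes, fibroblasts and smooth muscle did not lie together on the scale. NT5E, the ecto-nucleotidase CD73, was at 11.94 ± 0.18 (percentile 99.1), and PDPN, the sialoglycoprotein podoplanin, at 10.62 ± 0.26 (percentile 92.7). FAP, a fibroblast surface protease, was at percentile 75.2 and THY1, a surface antigen of fibroblasts and neurons, at 36.0. DCN, the proteoglycan decorin, was at 15.6, MYH11, smooth muscle myosin, at 14.024, and S100A4, a calcium-binding protein of fibroblasts, at 2.08. POSTN, the matrix protein periostin, read 5.97, 5.60, 5.80 and 8.41, lowest in the list, with a mean of 5.79 without replicate 4.

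Lineage transcription factors spread over the whole scale, with a median percentile of 56.2 over 47 genes. SNAI2, the factor Slug of neural crest and mesenchymal transition, read 11.57, 11.67, 11.89 and 12.09, and ZEB2, a repressor of the epithelial state, was at 10.61 ± 0.18 (percentile 92.6). SNAI1, the related factor Snail, was at 7.04 ± 0.44 (percentile 6.23), and TWIST1, a mesoderm factor, at 7.37 ± 0.24 (percentile 16.3). The factors linked with mesenchymal transition thus lay at both ends of the array. HOXB2, a hindbrain segment gene, was at percentile 92.0, OTX1, a forebrain gene, at 79.1, and GATA2, a blood and endothelial factor, at 3.23. SOX9, a glial and cartilage factor, varied more, at 8.99, 8.87, 8.49 and 7.68.

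**Figure D3:**
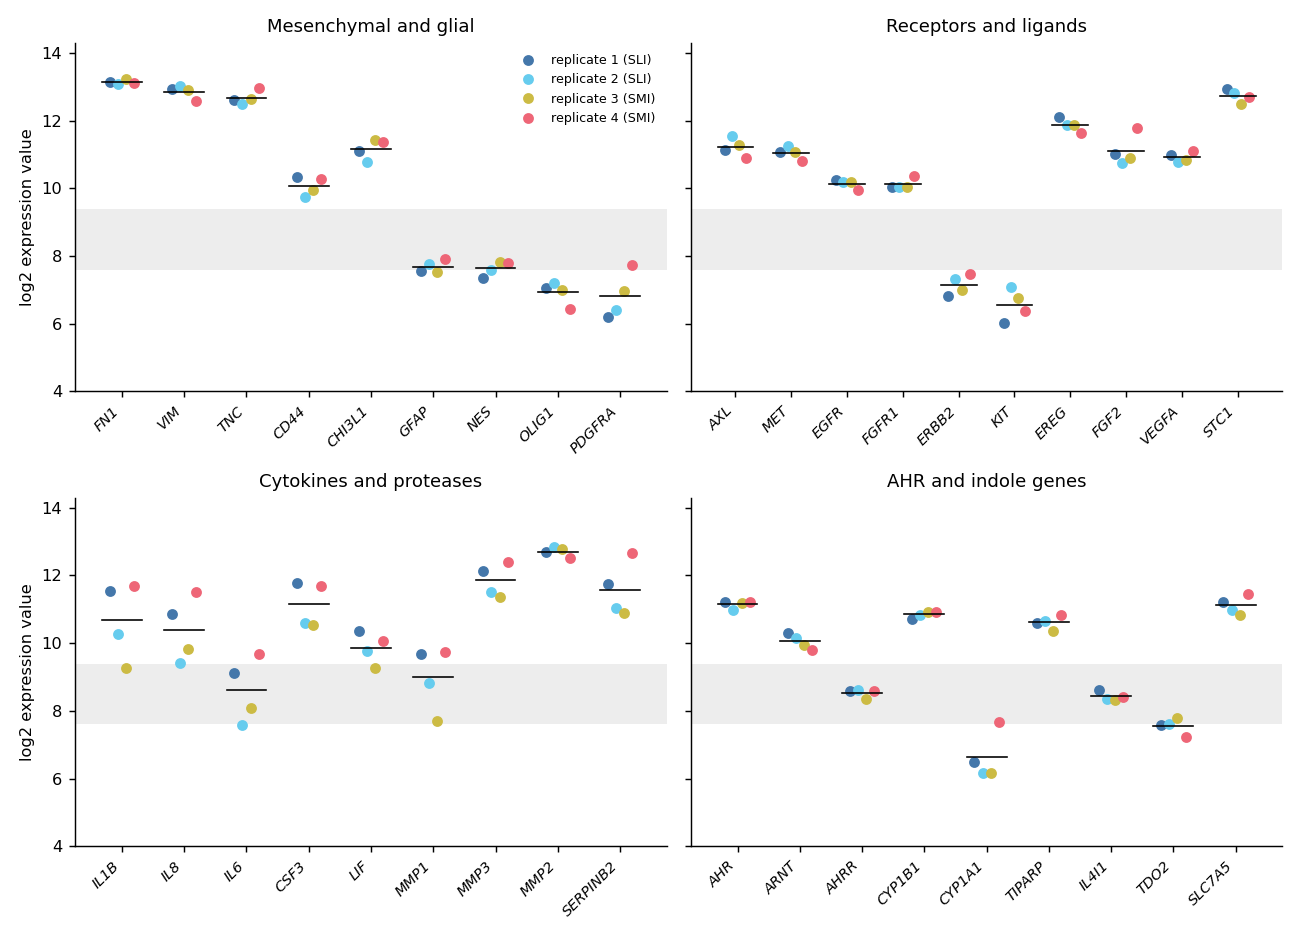
Log2 expression values (y axis) of named genes on each of the 4 DMSO arrays (coloured points) with the mean (black line), and a grey band from percentile 25 to 75 of all gene means. FN1, VIM and TNC lie above 12 on every array, GFAP, NES, OLIG1 and PDGFRA below 8, and IL1B, IL8, IL6 and MMP1 spread over about 2 units.

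Receptor tyrosine kinases had a median percentile of 28.9 over 35 genes, with a few high members. AXL, the receptor for GAS6, read 11.12, 11.53, 11.27 and 10.89, and MET, the receptor for hepatocyte growth factor, read 11.07, 11.25, 11.08 and 10.80. EGFR, the epidermal growth factor receptor often amplified in glioblastoma, read 10.23, 10.19, 10.19 and 9.95, and FGFR1, a fibroblast growth factor receptor, read 10.04, 10.03, 10.04 and 10.36. On every DMSO array these 4 receptors read above 9.38, where the highest 25% of gene means began. EPHB2, an ephrin receptor, was at percentile 84.6 and DDR2, a collagen receptor, at 77.9. PDGFRB was at 57.4 and IGF1R at 49.0, near the middle. At the floor, KIT, the stem cell factor receptor, read 6.01, 7.09, 6.76 and 6.36, ERBB4, a neuregulin receptor, was at 6.63 ± 0.12 (percentile 1.28), and RET, the receptor for glial cell line-derived factors, at 6.75 ± 0.62 (percentile 1.94). ERBB2 and ERBB3, the partners of EGFR, were at percentiles 8.68 and 2.89, below most genes.

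Among growth factor ligands 4 of 27 (14.8%) lay in the highest 10% on all arrays, against 7.98% of all genes. EREG, the EGF receptor ligand epiregulin, read 12.09, 11.87, 11.86 and 11.64, and HBEGF, another ligand of that receptor, was at 9.51 ± 0.23 (percentile 77.2). EGF itself was at 7.05 ± 0.40 (percentile 6.42) and TGFA at 8.32 ± 0.29 (percentile 49.4). NRG1, neuregulin, a ligand of ERBB3 and ERBB4, was at 10.75 ± 0.52 (percentile 93.8), while both receptors lay under percentile 4. FGF2, the basic fibroblast growth factor, read 11.02, 10.76, 10.89 and 11.78, highest on replicate 4, and VEGFA, the vascular endothelial growth factor, read 10.99, 10.78, 10.82 and 11.09. HGF, the MET ligand, read 8.93, 9.23, 9.08 and 7.95, and GAS6, the AXL ligand, was at 7.83 ± 0.23 (percentile 34.2). STC1, the secreted glycoprotein stanniocalcin, was highest of the list at 12.74 ± 0.19 (percentile 99.82). The angiopoietins ANGPT1 and ANGPT2 were at percentiles 23.9 and 1.04, and the PDGF chains PDGFA, PDGFB and PDGFC at 33.5, 56.2 and 72.3.

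Of the TGF-beta and BMP genes, GREM1, the secreted BMP antagonist gremlin, read 12.49, 12.50, 12.26 and 12.27, with a mean in the highest 1% of genes. The receptors TGFBR1 and TGFBR2 were at percentiles 88.1 and 88.5, the ligands TGFB1 and TGFB2 at 83.1 and 72.8, and TGFB3 at 5.83. BMP2 was at 42.2, BMP4 at 22.1 and BMP6 at 4.04. INHBA, the activin A chain, read 6.61, 5.48, 6.57 and 7.65, lowest of the list. CHRD, the BMP antagonist chordin, read 7.31, 7.04, 7.19 and 5.82, lowest on replicate 4, with a mean at percentile 2.84 and, without replicate 4, at 9.94.

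Genes of WNT, Notch and hedgehog signalling were mostly below the median gene. CTNNB1, beta-catenin, was at 11.74 ± 0.15 (percentile 98.7), and WNT5A, a ligand that acts largely without beta-catenin, read 10.71, 10.61, 10.82 and 11.23. AXIN2, a feedback target of beta-catenin, was at 7.52 ± 0.32 (percentile 21.9), LGR5, a receptor that boosts WNT signals, at 6.68 ± 0.32 (percentile 1.62), and DKK1, a secreted WNT antagonist, at 7.49 ± 0.30 (percentile 20.9). NOTCH2 read 11.34, 11.39, 11.36 and 11.68, whereas NOTCH1 was at percentile 58.1, NOTCH3 at 7.83 and NOTCH4 at 6.34. The Notch target genes HES1 and HEY1 were at 14.7 and 0.876. In hedgehog signalling, SHH, the ligand, was at percentile 4.52, PTCH1, its receptor, at 42.0, and GLI1, the target gene most used as its readout, at 0.548. Over both families the list median was percentile 23.9, close to that of the tissue-restricted genes.

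The G protein-coupled receptors had a median percentile of 26.4 over 25 genes. GPR56, an adhesion receptor, was at 11.18 ± 0.40 (percentile 96.6), S1PR3, a sphingosine phosphate receptor, at 10.24 ± 0.27 (percentile 88.9), and ADORA2B, an adenosine receptor, at 9.84 ± 0.16 (percentile 83.0). CXCR4, the receptor for CXCL12, was at 8.53 ± 0.39 (percentile 54.9). PTGER4, a prostaglandin E receptor, and DRD2, a dopamine receptor, were lowest, at percentiles 1.31 and 0.285.

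Cytokine and chemokine genes varied most between the DMSO arrays of any list. Their median SD was 0.464, against 0.196 over all genes. IL1B, interleukin-1 beta, read 11.54, 10.27, 9.27 and 11.68, IL8, the neutrophil chemokine CXCL8, read 10.87, 9.40, 9.84 and 11.50, and IL6 read 9.11, 7.59, 8.08 and 9.69. For these genes replicates 1 and 4 held the higher values, and the array order did not follow the title series. CSF3, the granulocyte growth factor, read 11.77, 10.61, 10.52 and 11.70, and LIF, the leukaemia inhibitory factor, read 10.36, 9.78, 9.26 and 10.05, again with replicates 1 and 4 highest. CX3CL1, the membrane-bound chemokine fractalkine, was high and steady at 11.66 ± 0.09 (percentile 98.5). MIF, a cytokine and tautomerase, was at 10.67 ± 0.23 (percentile 93.1). TNF, tumour necrosis factor, was at 7.26 ± 0.09 (percentile 12.5), CCL5, a T cell chemokine, at 7.06 ± 0.21 (percentile 6.71), and CCL2, a monocyte chemokine, at 8.11 ± 0.46 (percentile 43.2). IL1A and IL33, alarmins of the interleukin-1 family, were lowest by mean. IL33 read 6.26, 5.51, 5.77 and 7.88 and IL1A read 6.02, 5.42, 5.99 and 7.34, each highest on replicate 4.

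Of the cytokine receptors, 3 of 34 (8.82%) lay in the highest 10% on all arrays, a share near the 7.98% of all genes, and the list median was percentile 65.8. IL6ST, the signal chain gp130 shared by IL6, LIF and oncostatin M, read 11.04, 10.98, 11.16 and 11.34, and OSMR, the oncostatin M receptor, was at 9.91 ± 0.05 (percentile 83.9). IL13RA1 was at percentile 95.8 and IL13RA2, a decoy receptor studied as a glioblastoma antigen, read 10.38, 10.24, 10.53 and 10.34. TNFRSF12A, the TWEAK receptor Fn14, was at 11.47 ± 0.04 (percentile 97.8). IL1R1, the receptor of IL1B, was at 9.54 ± 0.14 (percentile 77.8). IL1RL1, the receptor of IL33, read 5.56, 5.03, 6.73 and 9.35, and replicate 4 lay more than 2 above every other DMSO array. The lymphoid and myeloid chains IL2RG and CSF2RB were at percentiles 4.16 and 9.32.

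Several genes of antigen presentation were high, among them class I genes and the DR chains of class II, while a DQ chain was not. Of the 27 genes of the antigen presentation list, 10 (37.0%) lay in the highest 10% on all arrays, against 7.98% of all genes. B2M, the light chain of class I molecules, read 11.81, 11.81, 11.94 and 11.96, and HLA-C read 11.19, 11.10, 11.002 and 11.38. CD74, the invariant chain that escorts class II molecules, read 10.97, 10.998, 10.98 and 11.08. HLA-DRA and HLA-DRB1, the chains of a class II molecule, were at 10.73 ± 0.35 (percentile 93.7) and 10.78 ± 0.17 (percentile 94.0), and HLA-DPA1 was at 10.68 ± 0.14 (percentile 93.3). HLA-DQA1 was near the middle, at percentile 54.0, and at 40.5 without replicate 4. CIITA, the transactivator of class II genes, read 8.08, 8.62, 8.09 and 7.59, below the middle of the scale on average. Probes for HLA genes can be shared among near-identical copies, so the identity of a single HLA signal is uncertain. TAP1, a peptide transporter, was at percentile 64.8. Of the immune ligands, CD276 (B7-H3) was at 10.78 ± 0.24 (percentile 94.0) and CD47, the signal that restrains phagocytosis, at 10.71 ± 0.10 (percentile 93.5). CD274 (PD-L1) was at 7.95 ± 0.55 (percentile 38.027).

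Interferon-stimulated genes had a median percentile of 36.2, against 77.8 for the antigen presentation list. In the highest 10% on all arrays lay 0 of 21, against 7.98% of all genes, again too few genes to read a difference from. IFI44 was highest at percentile 76.6. ISG15, a ubiquitin-like modifier, was at 7.28 ± 0.03 (percentile 13.006), MX1, an antiviral GTPase, at 7.89 ± 0.24 (percentile 36.2), and IFI27 at 7.08 ± 0.19 (percentile 7.02). The interferon receptor chains IFNAR1 and IFNGR2 were at percentiles 84.4 and 81.3.

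Matrix genes were high for fibronectin, collagens I and VI and collagen cross-linking. Of 38 genes, 13 (34.2%) lay in the highest 10% on all arrays, against 7.98% of all genes. COL6A3 read 11.99, 12.08, 12.34 and 11.99, COL6A1 was at 11.13 ± 0.27 (percentile 96.3) and COL6A2 at 10.65 ± 0.29 (percentile 92.9). COL1A1 and COL1A2, the fibrillar collagen I chains, were at percentiles 94.7 and 91.4. LOX and LOXL2, the lysyl oxidases that cross-link collagen, were at 95.3 and 98.3, and SPARC, a collagen-binding glycoprotein, at 96.4. COL4A1 and COL4A2, of basement membranes, were lower, at 32.6 and 24.8. VCAN, the proteoglycan versican, was at 92.3, while the brain proteoglycans BCAN and NCAN were at 27.4 and 5.40.

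Several integrin subunits that bind fibronectin and vitronectin were high. ITGB1 read 11.61, 11.53, 11.87 and 11.74, ITGA5 read 11.55, 11.54, 11.41 and 11.19, and ITGAV read 10.73, 10.84, 10.78 and 10.85. ITGA3, a laminin receptor subunit, was at 12.09 ± 0.23 (percentile 99.3), and ITGB3, the partner of ITGAV, at 11.30 ± 0.10 (percentile 97.1). ITGB4 and ITGB8 were at percentiles 6.19 and 7.98. CDH2 (N-cadherin) was at 9.60 ± 0.10 (percentile 78.9) and CDH1 (E-cadherin) at 7.98 ± 0.09 (percentile 39.4), with CDH13, a cadherin anchored by a lipid, at 11.39 ± 0.10 (percentile 97.5).

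Proteases and their inhibitors stood among the highest lists, with a median percentile of 83.5 and 12 of 32 (37.5%) in the highest 10% on all arrays, against 7.98% of all genes. MMP2, a gelatinase, read 12.70, 12.83, 12.77 and 12.53, and TIMP1, a metalloproteinase inhibitor, read 12.81, 12.62, 12.27 and 12.27. MMP9, the other gelatinase, read 7.13, 7.03, 7.07 and 7.11, near the floor on all 4 arrays. CTSB and CTSD, lysosomal cathepsins, were at 12.53 ± 0.17 (percentile 99.71) and 12.33 ± 0.45 (percentile 99.52). PLAU (urokinase) and PLAUR (its receptor) were at percentiles 97.8 and 97.5. SERPINB2, an inhibitor of urokinase, read 11.74, 11.05, 10.89 and 12.66, and MMP3, stromelysin, read 12.14, 11.50, 11.36 and 12.41. MMP1, interstitial collagenase, read 9.69, 8.81, 7.70 and 9.75, with replicates 1 and 4 highest as for the interleukins above. MMP13, a collagenase of cartilage and bone, was lowest, at 6.70 ± 0.76 (percentile 1.70).

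Genes of the AHR system were mostly high in carrier alone. Of 24 genes of the complex and its targets, 7 (29.2%) lay in the highest 10% on all arrays, against 7.98% of all genes. AHR read 11.21, 10.99, 11.20 and 11.23 and its partner ARNT read 10.29, 10.17, 9.96 and 9.79. The chaperones HSP90AA1 and PTGES3 were at percentiles 99.79 and 96.4. The brain-enriched partner ARNT2 was at 8.12 ± 0.24 (percentile 43.5) and the repressor AHRR at 8.54 ± 0.12 (percentile 55.2). CYP1B1, a target cytochrome P450, read 10.71, 10.84, 10.92 and 10.93, in the highest 10% on every array. CYP1A1, its relative and the most used target, read 6.48, 6.17, 6.16 and 7.68, in the lowest 10% on 3 arrays and above it on replicate 4. TIPARP, an ADP-ribosyltransferase that restrains AHR, was at 10.62 ± 0.19 (percentile 92.7), NQO1, a quinone reductase, at 10.53 ± 0.37 (percentile 91.9), and ALDH3A1, an aldehyde dehydrogenase, at 7.71 ± 0.26 (percentile 29.7). Targets of the same receptor thus ranged from percentile 1.23 to 94.7 in carrier alone.

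Genes that make or use tryptophan products lay around the middle, with a median percentile of 50.5 over 23 genes. IL4I1, an amino acid oxidase that makes I3P from tryptophan, read 8.62, 8.36, 8.33 and 8.39. GOT1 and GOT2, aminotransferases that can also act on aromatic amino acids, were at 10.46 ± 0.08 (percentile 91.2) and 11.17 ± 0.19 (percentile 96.6). TDO2, the dioxygenase that opens the indole ring toward kynurenine, read 7.58, 7.61, 7.79 and 7.23. KYNU, kynureninase, read 11.11, 10.53, 10.82 and 9.90, and HAAO, the hydroxyanthranilate dioxygenase further along that route, was at 6.85 ± 0.82 (percentile 3.05). WARS, tryptophanyl-tRNA synthetase, was at percentile 85.2, and MIF and DDT, tautomerases able to act on phenylpyruvate, at 93.1 and 50.6.

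Transporters for neutral amino acids ranged from the highest 1% of genes to percentile 10.99. SLC7A5 (LAT1), which carries tryptophan, read 11.22, 10.98, 10.84 and 11.46, and its heavy chain SLC3A2 was at 11.37 ± 0.31 (percentile 97.4). SLC38A2 and SLC38A1, sodium-coupled neutral amino acid carriers, were at percentiles 99.2 and 97.4, and SLC1A5, a glutamine carrier, at 91.9. SLC7A8, another carrier of that family, was at 7.71 ± 0.48 (percentile 29.8) and SLC43A1 at 7.22 ± 0.31 (percentile 10.99). SLC7A11, the cystine importer, was at 8.94 ± 0.14 (percentile 65.3). Of the monocarboxylate carriers, SLC16A1 (MCT1) was at percentile 87.1 and SLC16A3 (MCT4) at 85.5, with BSG, their chaperone basigin, at 99.61. SLC16A6 read 10.46, 9.75, 8.25 and 9.23, with one of the larger spreads among transporters. SLC2A1 (GLUT1) was at 9.66 ± 0.14 (percentile 80.1), SLC2A3 (GLUT3) at 8.21 ± 0.23 (percentile 46.2) and SLC2A4 (GLUT4) at 7.70 ± 0.49 (percentile 29.2).

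Glycolysis genes were high for the widely used isoforms. LDHA, the lactate dehydrogenase chain that favours lactate, read 12.73, 12.73, 12.80 and 12.55, and PGK1, phosphoglycerate kinase, was at 11.99 ± 0.14 (percentile 99.1). HK1, a hexokinase, was at percentile 98.996 and HK2, the inducible form, at 76.1. PFKP, the platelet phosphofructokinase, was at 92.7, PFKL at 77.9 and PFKM at 72.2. The tissue forms were lower, with HK3 at 38.1, PKLR, the liver and red cell pyruvate kinase, at 38.8, and ENO3, the muscle enolase, at 2.6994. In all 10 of 26 (38.5%) lay in the highest 10% on all arrays, against 7.98% of all genes.

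Of the tricarboxylic acid cycle genes 7 of 24 (29.2%) did so, to be set beside the same 7.98%. ACLY, which turns citrate into acetyl-CoA, was at 12.01 ± 0.21 (percentile 99.2), and MDH2, malate dehydrogenase, at 11.35 ± 0.24 (percentile 97.3). IDH1 and IDH2, the isocitrate dehydrogenases mutated in lower-grade gliomas, were at 9.25 ± 0.36 (percentile 72.3) and 8.63 ± 0.16 (percentile 57.6), and ME3, a malic enzyme, was lowest at 7.22 ± 0.31 (percentile 11.3). In the pentose phosphate pathway TALDO1, TKT and PGD were at percentiles 97.3, 95.6 and 90.7, while the gluconeogenic enzymes PCK1, PCK2 and PC were at 5.82, 8.90 and 15.1. PHGDH, the entry enzyme of serine synthesis, read 10.47, 10.30, 10.27 and 10.16, and SHMT2 and MTHFD2, of the mitochondrial folate route, were at 10.18 ± 0.11 (percentile 88.1) and 10.78 ± 0.23 (percentile 94.0). GLDC, of glycine cleavage, was at 7.15 ± 0.17 (percentile 8.95). ASNS, asparagine synthetase, read 8.01, 7.37, 8.11 and 9.38, and CTH, the cysteine-forming lyase, read 7.15, 6.76, 7.28 and 8.65, both highest on replicate 4. In lipid synthesis SCD, a desaturase, was at percentile 97.0, INSIG1, the sterol sensor partner, at 96.8, SQLE, squalene epoxidase, at 84.5, and FASN, fatty acid synthase, at 60.2. ALDH1A3, a retinal dehydrogenase linked with mesenchymal glioma, read 11.77, 11.86, 11.28 and 11.21, and its relative ALDH1A2 was at 7.06 ± 0.24 (percentile 6.67).

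Genes of cell division were high. All 22 mitosis genes lay above percentile 75 by mean, and 10 (45.5%) lay in the highest 10% on all arrays, against 7.98% of all genes. MKI67, the Ki-67 antigen, read 11.43, 11.35, 11.58 and 11.27, TOP2A, topoisomerase II alpha, read 11.52, 11.35, 11.98 and 11.89, and PLK1, a mitotic kinase, read 12.10, 12.04, 11.96 and 10.98. RRM2, a ribonucleotide reductase subunit, and MCM4, of the replication helicase, were at 12.15 ± 0.15 (percentile 99.3) and 11.55 ± 0.09 (percentile 98.0). Among genes recurrent in glioblastoma, CCND1 (cyclin D1) and CDK4 were at percentiles 98.6 and 97.9, and MDM2, a ubiquitin ligase, read 10.72, 10.63, 10.74 and 10.69. CDKN2B, a cyclin kinase inhibitor, was lowest of these, at 6.97, 7.19, 7.34 and 7.41. RB1 was at percentile 80.2, NF1 at 75.7, ATRX at 59.95 and TERT, the telomerase enzyme, at 29.0. CDKN2A and MGMT had no row of a single symbol and were not analysed here. CDKN1A, the cyclin kinase inhibitor p21, was at 8.52 ± 0.17 (percentile 54.8).

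Immediate early and stress genes gave mixed levels. FOSL1, an AP-1 subunit, read 11.79, 12.05, 11.92 and 11.52, and JUN read 11.09, 11.03, 10.90 and 11.07, whereas FOS read 6.82, 7.15, 6.98 and 7.11 and NR4A2, a nuclear receptor induced by stimulation, was at 6.94 ± 0.31 (percentile 4.20). The AP-1 subunits thus stood at opposite ends. HSPA5, CALR and CANX, chaperones of the endoplasmic reticulum, were at percentiles 99.3, 99.67 and 99.2, and HMOX1, haem oxygenase, at 92.8. DDIT3 (CHOP) and CHAC1, late genes of the integrated stress response, were at 7.83 ± 0.38 (percentile 34.1) and 7.69 ± 0.76 (percentile 28.7). Of the drug transporters, ABCC1 was at percentile 64.6, ABCG2 at 15.0, and ABCB1 (P-glycoprotein) read 5.88, 5.90, 6.08 and 7.70. GSTP1, a glutathione transferase, was at 10.68 ± 0.22 (percentile 93.2).

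The spread between the DMSO arrays was smaller at higher levels. The median SD was 0.314 in the lowest 10% of genes and 0.145 in the highest, with 0.196 over all. The median SD of the other groups was 0.256 for I3P, 0.193 for SR1 and 0.207 for I3P+SR1. Ribosomal protein genes were among the steadiest lists, with a median SD of 0.132, and mitosis genes varied more, at 0.285. Of the 20 genes with the largest SD, 15 lay in the lowest 10% of means and replicate 4 was the highest array for 15. BOLL, an RNA-binding protein of germ cells, read 7.54, 2.13, 6.55 and 7.42, and DNAJB13, a gene of motile cilia, read 4.07, 6.76, 4.44 and 8.62. For BOLL replicate 2 lay more than 4 below the other 3 arrays, and for DNAJB13 replicates 1 and 3 lay more than 2 below replicates 2 and 4. A few variable genes were well above the floor. PI3, the elastase inhibitor elafin, read 11.34, 10.81, 8.69 and 10.58, and MT1G, a metallothionein, read 9.52, 8.44, 6.72 and 9.15, each lowest on replicate 3. Among the low genes, ELF5, an epithelial transcription factor at percentile 3.33, read 7.62, 8.12, 6.29 and 5.48, lower on the SMI than on the SLI arrays.

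**Figure D4:**
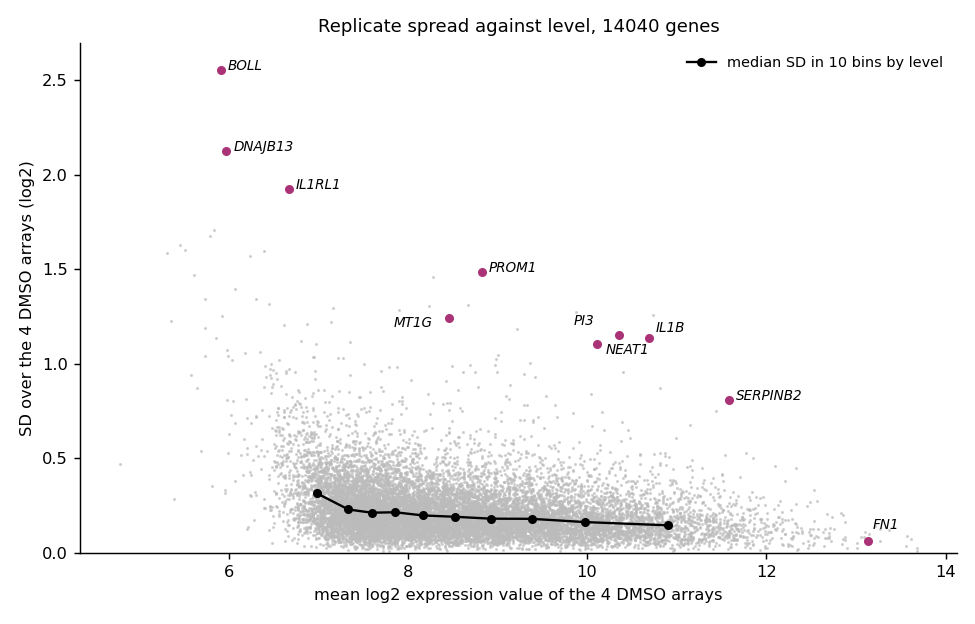
SD over the 4 DMSO arrays (y axis) against the mean log2 value (x axis) for 14040 genes (grey), with the median SD in 10 bins by level (black) and named genes in purple. The median SD goes from 0.314 in the lowest 10% to 0.145 in the highest, while IL1B, PI3, NEAT1 and SERPINB2 combine a high level with a wide spread.

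Replicate 4 carried its own set of genes. On it, 136 genes lay at least 1 log2 unit outside all other DMSO arrays, 83 above and 53 below, against 13 to 17 genes on each of the other arrays. Of these, 54 of the high and 18 of the low genes held the same place on all 3 replicate 4 arrays of the other groups, outside every array of replicates 1 to 3. HAS2, the hyaluronan synthase, read 8.85, 8.56, 8.65 and 10.33, and LCP1, the actin bundler L-plastin of blood cells, read 8.86, 8.68, 8.63 and 10.34. HLA-DQA1, a class II chain, read 8.04, 7.58, 8.501 and 9.86. Some genes induced by ATF4 in amino acid shortage were in this set, among them ASNS and CTH, given above. TRIB3, a pseudokinase also in the set, read 7.88, 7.70, 8.11 and 9.44. ATF3, a stress-induced factor in the set, read 8.21, 7.67, 8.16 and 9.51. Other genes controlled by ATF4 were not in it, since CHAC1, DDIT3, PSAT1 and SLC7A11 on replicate 4 exceeded the other DMSO arrays by less than 1. By smaller gaps, CHAC1 and DDIT3 still lay above every array of replicates 1 to 3 on all replicate 4 arrays. CHAC1 read 8.60 to 8.94 there against at most 8.46, and DDIT3 8.25 to 8.74 against at most 8.04. PSAT1 and SLC7A11 did not hold in this way. On the low side HSPB6, a small heat shock protein, read 8.07, 7.997, 7.97 and 6.01, and METTL7A, a methyltransferase, read 8.03, 7.84, 7.54 and 5.24. The rest of the 136 genes did not hold in this way. SLC17A3, for example, read 8.12 on DMSO replicate 4 but 4.33 to 5.54 on the replicate 4 arrays of the other groups. PROM1 was the only gene of the 136 at least 1 log2 unit outside all other 15 arrays of the series, which did not exceed 8.39. What sets replicate 4 apart was not tested.

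**Figure D5:**
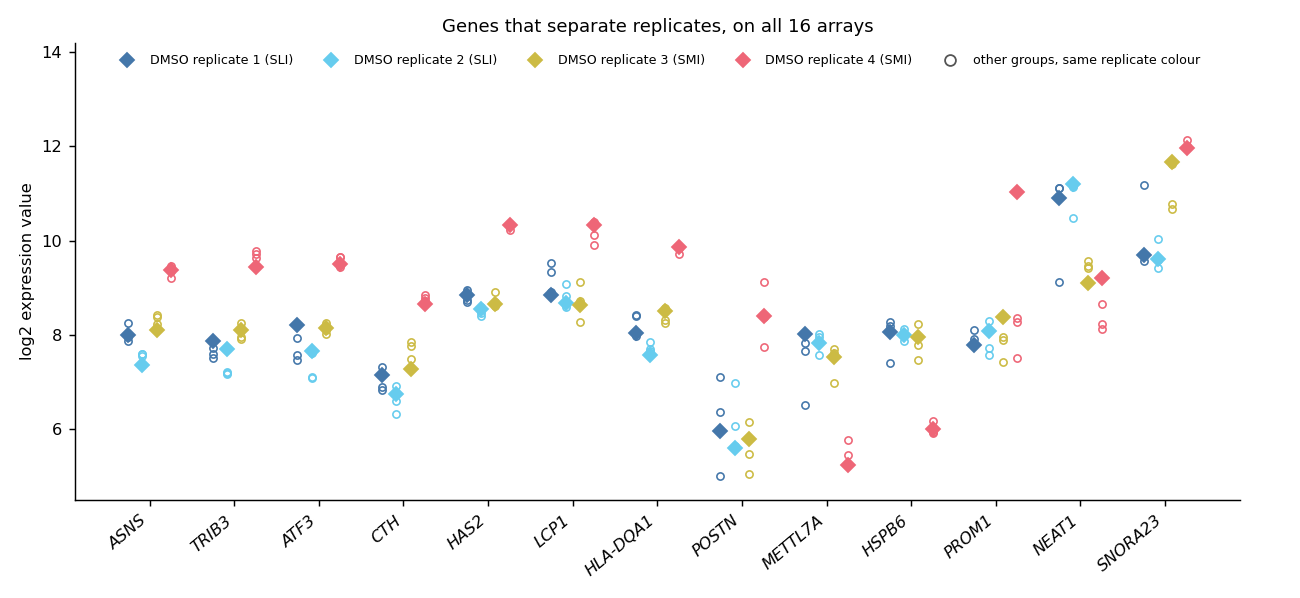
Log2 expression values (y axis) of 13 genes on all 16 arrays, coloured by replicate number, with DMSO arrays as filled diamonds and the other groups as open circles. ASNS, TRIB3, ATF3, HAS2 and HLA-DQA1 are high and HSPB6 low on all replicate 4 arrays, PROM1 is high only on the DMSO array, and NEAT1 is lower and SNORA23 higher on replicates 3 and 4 than on replicates 1 and 2, apart from an I3P replicate 1 array.

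The title series divides the 4 DMSO arrays into pairs. The SMI arrays both lay above the SLI arrays for 2770 genes (19.7%) and below for 3454 (24.6%). With so few arrays, any split into pairs separates many genes in this way, so these shares alone do not measure a series effect. With limma over all genes, SMI against SLI, 0 genes (0%) had an adjusted p under 0.05, while 1312 had an unadjusted p under 0.05 and 10 passed when eBayes was run with a trend and robust variances. Without replicate 3, 73 passed. The smallest p-values belonged to small RNA genes, led by SNORA23, a small nucleolar RNA, at 9.70, 9.61, 11.66 and 11.98. NEAT1, the long non-coding RNA of paraspeckles, read 10.91, 11.20, 9.11 and 9.20, a difference of -1.90 (SE 0.17) with a limma adjusted p of 0.091 that did not pass. LRRTM4, a synaptic adhesion gene, differed by 1.18 (SE 0.15) and also did not pass, with a limma adjusted p of 0.25. Of 60 small nucleolar RNA genes, 45 were higher on both SMI arrays than on both SLI arrays, and the median difference was 0.59, against -0.022 over all genes. The small RNA class was singled out after its values were seen. In the other groups together the SMI minus SLI difference of NEAT1 was -1.78. What the series names stand for, and whether RNA preparation differed, was not tested.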

How the data were processed

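Total RNA of U-87MG cells in DMSO was hybridised to whole-transcript arrays by Affymetrix, per the labels' protocols. The deposited values are log2 expression values, which the authors made with oligo and RMA, per the submitters' processing notes; no version, genome build or treatment length is given in the sources used here. RMA subtracts a background, gives all arrays the same distribution of values and fits a value per probe set, so array medians are near equal, differences of dim genes are compressed, and signal over background was not assessed. Their number, 4, limits the precision.

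Rows were named from the platform annotation. How the deposited rows were chosen is not given in the sources used here. Of 16510 rows, 14096 had a single symbol and were used, which gave 14040 genes. Where a gene had several rows (52 genes), the brightest by its mean over all 16 arrays of the series was kept. Symbols are printed as the annotation gives them, of which 1044 are older and 44 could not be matched or were ambiguous. Percentiles were taken on the gene means and on each array.

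The members and the 43 gene lists were chosen with earlier results of these data known, so no list was tested and counts stand beside the share over all genes. Of 1157 listed genes 904 were measured. A list and some genes are not reported here. Named were the 20 highest means, 20 lowest means and 20 largest SDs as candidates, and of each list the 3 highest and 3 lowest members and others whose role is described; small RNA genes, pseudogenes and uncharacterised loci were passed over. SMI and SLI arrays were compared with the functions lmFit and eBayes of limma 3.58.1 under R 4.3.3 (two-sided, Benjamini-Hochberg over all genes). The code was tried on simulated data with independent noise, which checks the code and not the count of genes that passed. Alternatives were other percentile limits, means in place of every array, all rows, either title series alone, other eBayes settings and leaving out each array.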

Additional observations from a re-analysis of the deposited data

Results flagged for a closer look

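Among the 331 genes named here, 21 had an array whose gap to the nearest of the others passed Dixon's 95% limit for 4 samples. Chance flags about 1 in 20 groups, so a number of this size says nothing by itself, and over all genes 823 (5.86%) passed. The array that stood out was replicate 4 for 17 of the 21. Of the 823 among all genes, replicate 4 stood out on the high side for 151 and on the low side for 302. Some named genes, such as HAS2, LCP1 and HSPB6, were described above because replicate 4 stood apart. The count of 17 thus partly reflects how genes were named. Replicate 4 was high, at 7.70 for ABCB1 (others 5.88 to 6.08), 7.54 for CFLAR-AS1 (others 5.37 to 5.61), 7.65 for EGF (others 6.85 to 6.87), 10.36 for FGFR1 (others 10.03 to 10.04) and 10.33 for HAS2 (others 8.56 to 8.85). It was also high at 10.32 for KRT5 (others 9.82 to 9.89), 10.34 for LCP1 (others 8.63 to 8.86), 11.68 for NOTCH2 (others 11.34 to 11.39), 7.23 for NOTCH4 (others 6.97 to 7.01), 7.56 for PIK3CG (others 5.21 to 5.41) and 8.41 for POSTN (others 5.60 to 5.97). It was low, at 6.96 for ANGPT1 (others 7.76 to 7.80), 9.95 for EGFR (others 10.19 to 10.23), 6.01 for HSPB6 (others 7.97 to 8.07), 7.48 for PDGFA (others 7.91 to 7.94), 10.98 for PLK1 (others 11.96 to 12.10) and 10.74 for SPARC (others 11.25 to 11.31). The remaining cases were CPA1 on replicate 1, at 6.40 against 7.18 to 7.31 on the others, ENO1 on replicate 2, at 13.36 against 13.23 to 13.25 on the others, AHR on replicate 2, at 10.99 against 11.20 to 11.23 on the others and HIST2H2AC on replicate 2, at 12.93 against 13.09 to 13.10 on the others. For EGFR, FGFR1, NOTCH2, ENO1, AHR and HIST2H2AC the gap was under 0.4 log2 units, so the place of these genes on the scale is nearly the same with or without the array. What sets replicate 4 apart was not tested.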

How the results depend on the processing

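The count of genes in the highest 10% on all arrays was 542 with the highest 5% in its place. That in the lowest 10% was 91 with the lowest 5% and 1404 by the mean over arrays, and it lay between 453 and 626 with an array left out, highest without replicate 4. The number of lists with a median at or above percentile 75 was 10 under every alternative run. That at or below percentile 25 was 4, and 2 with percentiles over all rows, 2 on the SMI arrays alone, 6 on the SLI arrays alone, and 2 to 4 with an array left out. The median gene level was 8.26 over all rows of the table. The median spread was 0.438 as a range in place of an SD, and 0.153 to 0.198 with an array left out, lowest without replicate 4. In SMI against SLI within DMSO, limma called 10 genes with a trend and robust variances, 6 without the lowest 25% of genes, and 0 to 73 with an array left out, highest without replicate 3. The lone SMI or SLI array is then assumed to vary like the other pair. The cause of these shifts was not tested. In percentile, 13 of 43 list medians and 13 of 331 named genes moved by more than 1 SD over arrays on the SMI arrays alone, 7 and 24 on the SLI arrays alone, 4 and 29 over all rows, 5 and 8 without replicate 4, and 0 to 5 lists and 0 to 2 genes under the other settings. No paired analysis was possible because no treatment groups were compared and the 4 arrays form a single group.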

Other observations

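Genes controlled by the factor ATF4 differed in how far replicate 4 stood above the other DMSO arrays. CHAC1, a glutathione-degrading enzyme, read 7.31, 6.88, 7.96 and 8.60 on replicates 1 to 4, and SESN2, sestrin 2, read 8.90, 8.31, 8.88 and 10.08. DDIT3, the factor CHOP, read 7.64, 7.40, 8.04 and 8.25. PSAT1, phosphoserine aminotransferase, read 9.88, 9.53, 9.55 and 9.94, and SLC7A11, the cystine importer, read 8.78, 8.88, 8.97 and 9.11. ATF4 itself read 10.47, 10.35, 10.66 and 10.90. Replicate 4 was the highest array for each of these 6 genes, by more than 1 for SESN2 and by less than 0.3 for the others except CHAC1. PHGDH, of the same serine pathway as PSAT1, read 10.47, 10.30, 10.27 and 10.16, lowest on replicate 4. These genes were looked at after ASNS and TRIB3 had been seen, so their values are a description.

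Metallothionein genes differed in how steady they were. MT1X read 11.86, 11.54, 11.34 and 11.17 and MT2A kept within 0.21 log2 units over the 4 arrays, while MT1G, given above, spread over more than 2. MT2A and MT1X lay in the highest 10% of genes, where the median SD was 0.145. MT2A was steady, with an SD of 0.09, and its steadiness cannot be told apart from its level. MT1X was less steady and went down from replicate 1 to replicate 4.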
